A study of Mus musculus with 2 samples.

Results

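Arginine is used by several enzymes in tumour-infiltrating myeloid cells, and 7 genes of this metabolism are described here: Arg1, Arg2, Nos2, Slc7a2, Ass1, Asl and Odc1. They were chosen by name, by a match of the gene symbol, and make up 7 of the 32285 genes in the deposited count tables; each symbol matched a single row. The samples were CD45+ immune cells sorted from mouse tumours, CD45 being a surface protein of white blood cells, and profiled by droplet single-cell RNA sequencing with a kit that reads the 5′ end of transcripts. There was 1 library of cells from Ythdf2 KO tumours and 1 library of cells from WT tumours, both from C57BL/6 mice. Ythdf2 encodes a cytoplasmic protein that binds RNA carrying the N6-methyladenosine mark and shortens its life, and the series asks how it bears on immune evasion by tumours. The sample labels speak of Ythdf2 KO tumours and the series' design text of cKO mice, so which cells had lost the gene is not settled by them; the Cre driver, the kind of tumour, the ages and the number of animals per library are not given in the sources used here.

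The enzymes Arg1 and Arg2 split arginine into urea and ornithine, in the cytosol and in mitochondria, and Nos2, the inducible nitric oxide synthase, turns it into nitric oxide and citrulline. Slc7a2 carries arginine into the cell, Ass1 and Asl rebuild arginine from citrulline, and Odc1 makes the polyamine putrescine from ornithine. In mouse macrophages Arg1 is classically induced by interleukin-4 and interleukin-13 and by hypoxia, Nos2 by interferon-gamma and bacterial products, and both are used as markers of myeloid cells that restrain T cells in tumours.

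On mouse build mm10 with the GENCODE annotation, Arg1 lies at chr10:24915221-24927484 on the minus strand, Nos2 at chr11:78920787-78960254 on the plus strand and Arg2 at chr12:79130777-79156301 on the plus strand. Slc7a2 lies at chr8:40862396-40922308 (plus), Ass1 at chr2:31470207-31520672 (plus), Asl at chr5:130011258-130029247 (minus) and Odc1 at chr12:17544794-17551505 (plus). All are protein-coding, and the counts are of whole genes. Arg2 overlaps Vti1b and the antisense gene Gm48780 on the opposite strand. Vti1b had 52.1 CPM (UMIs of a gene scaled to a total of 1000000) in the Ythdf2 KO library and 48.6 CPM in the WT library over all kept cells, and the strand setting of the counting is not given in the sources used here, so Arg2 values carry that uncertainty.

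Promoter sequence is shown for Ass1 and Odc1, the members on the recycling and the polyamine side that were not lower in Ythdf2 KO macrophages and the only 2 of the 7 matched in the RefSeq promoter table used here (GRCm38.p6). Each window runs from 250 bases before to 50 bases after the start used in that promoter table, at chr2:31470020-31470319 and chr12:17544623-17544922, both on the plus strand. For both genes that start lies downstream of the GENCODE gene start given above. Capitals mark GC boxes (GGGCGG on either strand), the motif bound by Sp1-type factors.
Ass1: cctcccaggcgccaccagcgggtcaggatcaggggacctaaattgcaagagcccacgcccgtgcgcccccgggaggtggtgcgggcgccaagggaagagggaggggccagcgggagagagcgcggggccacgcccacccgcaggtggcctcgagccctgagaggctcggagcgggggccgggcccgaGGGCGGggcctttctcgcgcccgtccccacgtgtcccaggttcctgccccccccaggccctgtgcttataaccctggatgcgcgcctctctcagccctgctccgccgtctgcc
Odc1: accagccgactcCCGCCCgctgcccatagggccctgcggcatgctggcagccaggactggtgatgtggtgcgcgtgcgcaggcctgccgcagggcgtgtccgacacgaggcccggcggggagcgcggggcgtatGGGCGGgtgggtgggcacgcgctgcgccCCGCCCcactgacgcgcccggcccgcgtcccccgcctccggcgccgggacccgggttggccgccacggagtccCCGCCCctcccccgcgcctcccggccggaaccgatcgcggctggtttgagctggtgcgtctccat
Both windows are rich in G and C, at 74% in Ass1 and 78% in Odc1. The Ass1 window holds 1 GC box and 1 E-box (CACGTG), and the Odc1 window holds 4 GC boxes. Of 32851 windows of the same length in the table, 35.7% hold a GC box and 7.15% hold that E-box. Neither window holds a TATA box (TATAAA, in 13.6% of windows) or a CCAAT box (in 37.4%), and overlapping matches between these motifs were not removed. A match describes letters only.

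The Ythdf2 KO library held 16312 barcodes with a median of 5617 unique molecular identifiers (UMIs, each 1 captured transcript molecule), and the WT library held 20886 barcodes with a median of 5554. After filters on depth, mitochondrial share and doublet score, 14549 Ythdf2 KO and 18747 WT barcodes were kept; 101 barcode sequences occurred in both libraries. Cell types were set by gates on the UMIs of marker genes, none of them a member. At most 1 UMI of another lineage's markers was allowed, with exceptions for a few related types given under processing. This placed 58.5% of the kept Ythdf2 KO cells and 56.6% of the kept WT cells, and 14.5% and 15.6% carried markers of 2 lineages and were left out. Ythdf2 itself stood at 46.3 CPM in the Ythdf2 KO library and 48.6 CPM in the WT library, a ratio of 0.952 (0.918 to 0.988), so the sorted CD45+ cells of the library labelled Ythdf2 KO carried nearly as much Ythdf2 transcript as those of the WT library, and 5′ counts do not show whether the transcript was intact.

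The macrophage gate asked for the complement genes C1qa, C1qb and C1qc to outnumber the monocyte genes Ly6c2, Vcan and Chil3. It held 1780 Ythdf2 KO and 2808 WT cells. The intermediate gate (C1q genes present but not above the monocyte genes) held 493 and 612 cells, the classical monocyte gate 2671 and 3372, the patrolling monocyte gate 472 and 133, the neutrophil gate 753 and 460 and the mature dendritic cell (DC) gate 216 and 379. Some markers not used for gating followed the names: Mrc1 stood at 254 and 190 CPM in Ythdf2 KO and WT macrophages, against 34.2 and 27.6 in classical monocytes, and the neutrophil gene Csf3r at 1211 and 1250 in neutrophils, against 57.2 and 69.4 in macrophages. Others did not: Plac8, counted as a marker of classical monocytes, stood at 6853 CPM in Ythdf2 KO classical and 8306 CPM in Ythdf2 KO patrolling monocytes, the NK gene Klrk1 at about the same level in T cells (335 and 302 CPM in Ythdf2 KO and WT cells) as in NK cells (333 and 289 CPM), and Ccl17, listed for conventional DC of type cDC2, had no UMI there and 19.8 and 26.8 CPM in mature DC. Klrk1 also stood at 460 and 223 CPM in Ythdf2 KO and WT cDC2 and at 218 and 413 CPM in mature DC. In macrophages it stood at 96.6 and 127 CPM. The patrolling gate took 8.71% of Ythdf2 KO and 1.92% of WT monocyte/macrophage cells. The summed patrolling markers in macrophages came to 155 CPM in the Ythdf2 KO and 47 CPM in the WT library.

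Levels are in CPM of the gate's own UMIs, with exact 95% Poisson intervals, and ratios as Ythdf2 KO over WT with exact conditional binomial intervals (approximate ones, on the log scale, for the fixed make-up). With 1 library per genotype there is no replicate check: no test was made and these intervals cover counting error only. Whether a difference comes from the genotype or from the individual library cannot be told apart.

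Arg1 was lower in the Ythdf2 KO library in every monocyte and macrophage gate. It stood at 254.4 CPM (245 to 263) in Ythdf2 KO macrophages and 505.5 CPM (494 to 517) in WT macrophages, from 3082 and 7711 UMIs, a ratio of 0.503 (0.482 to 0.525). In intermediate cells it stood at 98.3 and 268.7 CPM, a ratio of 0.366 (0.326 to 0.410). Without the richest intermediate cell of each library that ratio was 0.328 (0.289 to 0.371). The gap was wider in classical monocytes, the Ly6c2-rich cells newly come from blood, with 52.9 CPM in the Ythdf2 KO library and 183.6 CPM in the WT library, a ratio of 0.288 (0.267 to 0.311). Patrolling monocytes had 11.1 and 43.5 CPM, from 38 and 39 UMIs, a ratio of 0.256 (0.160 to 0.411). Over the 4 gates together the level was 123 CPM in Ythdf2 KO and 315 CPM in WT cells, a ratio of 0.391 (0.378 to 0.405). Cells in no gate, which held 57.4% of Ythdf2 KO and 53.3% of WT Arg1 UMIs, also differed, at 109 and 209 CPM.

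The order of the gates by Arg1 was the same in both libraries, from macrophages through intermediate cells and classical monocytes to patrolling monocytes, and no neighbouring intervals overlapped along that run. Outside it Arg1 was scarce. Neutrophils had 4.05 CPM in the Ythdf2 KO library and 7.84 CPM in the WT library, natural killer (NK) cells 1.53 and 2.76, and Ythdf2 KO mature DC had none, which allows up to 2.05 CPM (3 UMIs), against 3.83 CPM (8 UMIs) in WT mature DC. T cells had 4.94 and 17.6 CPM, a ratio of 0.281 (0.167 to 0.452), although T cells are not known as a source of Arg1. Only 1 T cell in each library had 10 or more Arg1 UMIs, with 16 in the Ythdf2 KO and 46 in the WT library, and without these cells the levels were 1.35 and 8.32 CPM, a ratio of 0.162 (0.056 to 0.385).

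Nos2 was also lower in the Ythdf2 KO library, with ratios nearer to 1 than those of Arg1 in intermediate cells and classical monocytes, and its place among cell types was different. Classical monocytes led, with 48.6 CPM (45.3 to 52.2) in Ythdf2 KO and 69.9 CPM (66.2 to 73.8) in WT cells, a ratio of 0.696 (0.636 to 0.761). Intermediate cells had 41.7 and 57.3 CPM, a ratio of 0.728 (0.597 to 0.888). In the Ythdf2 KO library 1 intermediate cell held 39 of the 172 Nos2 UMIs. Without the richest cell of each library, intermediate cells had 32.4 and 53.3 CPM, a ratio of 0.607 (0.487 to 0.754). Macrophages had 22.9 CPM (20.3 to 25.8) and 38.7 CPM (35.7 to 42.0), a ratio of 0.592 (0.512 to 0.684). By gate, Nos2 thus stood highest in classical monocytes and Arg1 in macrophages, in both libraries. The intervals of classical monocytes and intermediate cells overlapped for Nos2 in the Ythdf2 KO library and not in the WT library. Without the richest cell of each gate and library, classical monocytes had 46.8 and 68.9 CPM, beside 32.4 and 53.3 CPM in intermediate cells. The overlap was not recomputed without these cells, so no contrast between the libraries is drawn from it. Patrolling monocytes had 13.5 and 56.9 CPM (0.237, 0.156 to 0.361), but 1 cell held 12 of the 46 Ythdf2 KO UMIs and 1 cell 28 of the 51 WT UMIs, and without these cells the values were 10.0 and 26.1 CPM (0.383, 0.219 to 0.681). Neutrophils had 9.27 and 23.5 CPM from 16 and 27 UMIs, a ratio of 0.394, and 0.260 (0.106 to 0.584) without the richest cell of each library.

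**Figure D1:**
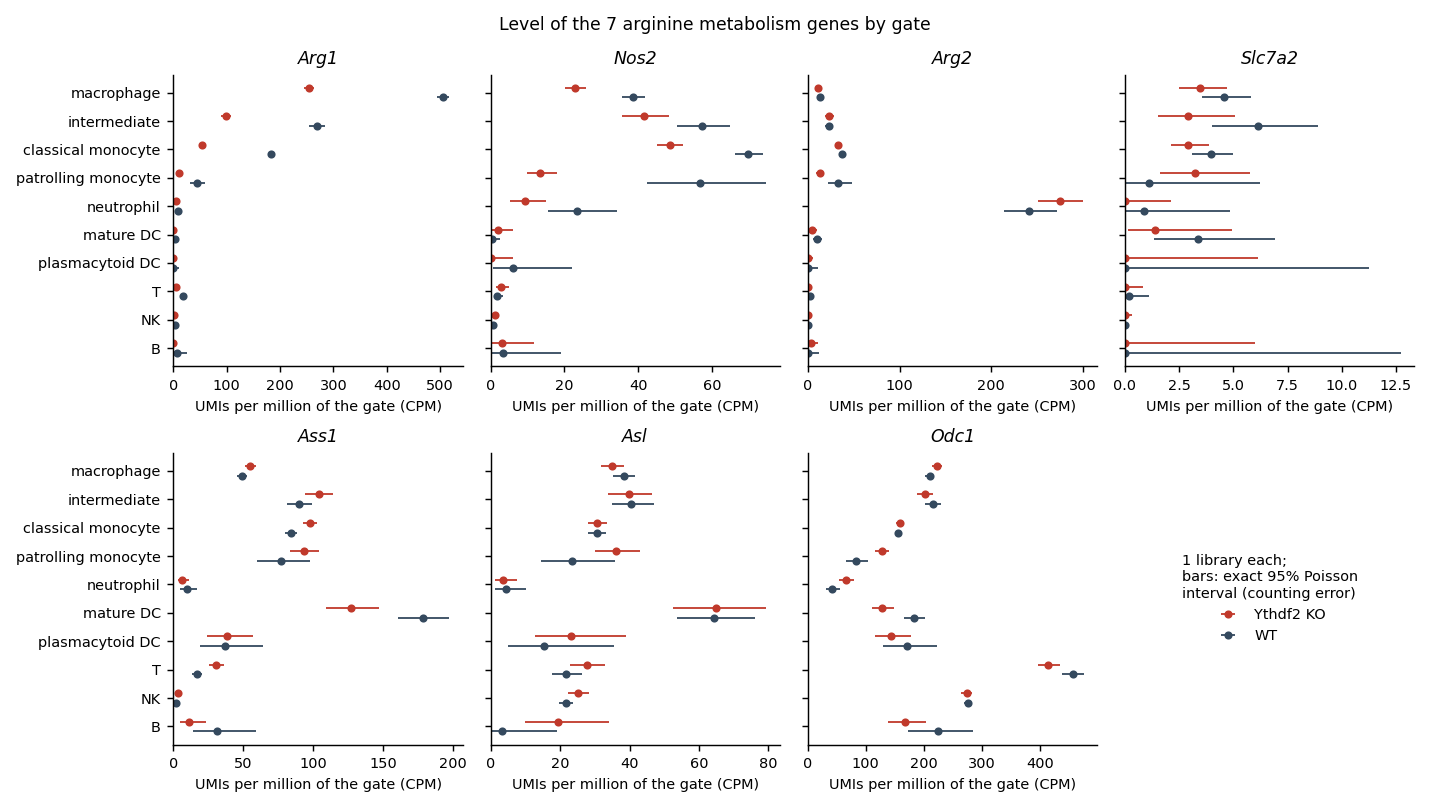
Level of each of the 7 genes (CPM, linear axes that differ between genes) in the 10 gates of at least 50 cells, with the Ythdf2 KO library above the WT library and bars for exact 95% Poisson intervals of 1 library each. Arg1 peaks in macrophages (254.4 CPM in Ythdf2 KO, 505.5 CPM in WT), Nos2 in classical monocytes (48.6 and 69.9 CPM), Arg2 in neutrophils (274.5 and 241.2 CPM) and Odc1 in T cells (415 and 458 CPM).

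Of the 7 members, all measured by at least 50 UMIs in macrophages, Arg1 and Nos2 were at least 1.5-fold lower in the Ythdf2 KO library there and none was 1.5-fold higher; among all 10491 genes measured in the gate 4.69% were that much lower and 2.47% that much higher. In classical monocytes only Arg1 of the 7 was past 1.5-fold, where 4.05% of 10037 genes were that much lower and 2.09% that much higher. The median log2 ratio of the members in macrophages was -0.21, beside -0.07 over all measured genes. Only 7 of the 10037 genes, or 0.0697%, had a lower ratio than Arg1 in classical monocytes, and 85 of 10491, or 0.810%, in macrophages. For Nos2 these shares were 4.87% in classical monocytes and 2.02% in macrophages.

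Fewer cells had an Arg1 UMI in the Ythdf2 KO library. In macrophages 22.9% of Ythdf2 KO and 40.5% of WT cells had at least 1 Arg1 UMI, while within such cells the level was 910 and 1129 CPM, so the ratio of shares was 0.57 and the ratio of levels 0.81. In classical monocytes 5.47% and 17.3% of cells had an Arg1 UMI, with 784 and 1006 CPM within them. Counted in UMIs, macrophages with Arg1 held a mean of 7.55 Arg1 UMIs in the Ythdf2 KO and 6.78 in the WT library, with a median of 3 in both. The level in CPM also depends on the depth of these cells, so less Arg1 per positive cell and a difference in depth cannot be told apart here. Nos2 was found in 7.13% of Ythdf2 KO and 10.4% of WT macrophages, with 291 and 306 CPM within them, and in 9.25% and 14.1% of classical monocytes, with 505 and 470 CPM. Macrophages with Nos2 had a median of 1 Nos2 UMI in both libraries, so the level within them is set near that of 1 UMI, and fewer cells with Nos2 and less Nos2 per cell cannot be told apart here.

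Because Ythdf2 KO macrophages were read more deeply (median 5770 UMIs, against 4735 in WT), shares were also computed after thinning every cell to 1000 UMIs. Arg1 was then expected in 10.7% (9.29 to 12.2) of Ythdf2 KO and 22.3% (20.8 to 23.9) of WT macrophages, with 6 and 7 shallower cells left out. The same share in T cells was 0.340% and 1.09%, at median depths of 4878 and 4669 UMIs before thinning, far under the macrophage shares. Nos2 was expected in 2.06% (1.45 to 2.83) of Ythdf2 KO and 3.14% (2.53 to 3.85) of WT macrophages, against 0.248% and 0.215% of T cells. In classical monocytes the thinned Arg1 shares were 2.29% and 8.61%, and the thinned Nos2 shares 3.60% and 5.48%.

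Arg1 was concentrated in few cells, more so in the Ythdf2 KO library. The richest 1% of Ythdf2 KO macrophages, 18 cells with 30 or more UMIs each, held 30.7% of the gate's Arg1, and the richest 10% held 87.2%. In WT macrophages these shares were 20.5% and 69.7%. In classical monocytes the richest 1% held 64.9% of Arg1 in the Ythdf2 KO library and 35.4% in the WT library. The richest 10% were 178 of the 408 Ythdf2 KO macrophages with an Arg1 UMI, but 281 of the 1137 such WT macrophages. The higher concentration is therefore not read as a result separate from the smaller share of cells with Arg1. Concentration among the cells with Arg1 alone was not tested. The single richest macrophage had 103 Arg1 UMIs in the Ythdf2 KO library and 107 in the WT library. The richest 1% began at 30 UMIs in Ythdf2 KO and 36 UMIs in WT macrophages. In all, 89 of 1780 Ythdf2 KO and 221 of 2808 WT macrophages reached 10 UMIs.

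The Arg1 difference also varied with the depth of the cell. Among macrophages of 2000 to 5000 UMIs the level was 167 CPM in Ythdf2 KO and 459 CPM in WT cells (ratio 0.364), and at 5000 to 10000 UMIs 296 and 538 CPM (0.550). Above 10000 UMIs it was 259 and 513 CPM (0.504). In classical monocytes the ratios over the same 3 ranges were 0.132, 0.280 and 0.523, so at each of these depths Ythdf2 KO cells held less Arg1, by different amounts. The part that depth plays in the size of the gap was not tested.

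**Figure D2:**
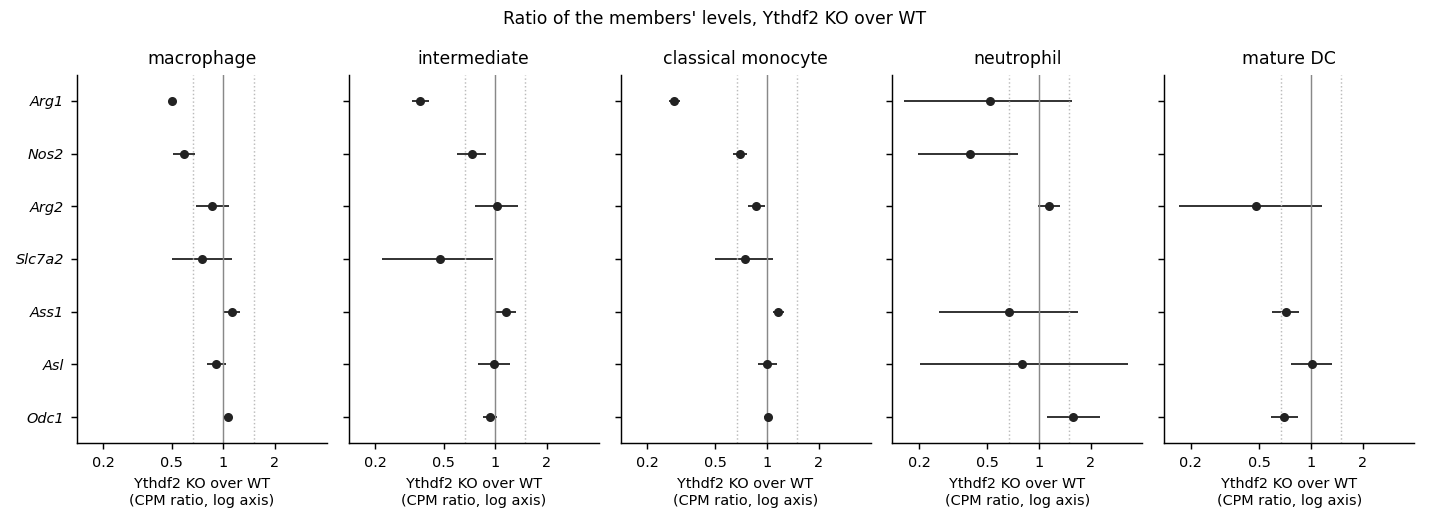
Ratio of each member's level, Ythdf2 KO over WT (log axis), in 5 gates, with exact 95% intervals for counting error, a solid line at 1 and dotted lines at 1.5-fold either way; ratios with too few UMIs are left out. In macrophages Arg1 lies at 0.503 and Nos2 at 0.592, while Ass1 lies at 1.12 and Odc1 at 1.06.

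The make-up of the monocyte/macrophage class differed, with macrophages at 32.9% of Ythdf2 KO and 40.5% of WT cells, so the class was also compared at a fixed make-up. With the 4 gates weighted by their WT shares of UMIs, Arg1 was 135 CPM in Ythdf2 KO and 315 CPM in WT cells, a ratio of 0.430 (0.415 to 0.445), beside 0.391 as found. With 8 ranges of the C1q share in place of the gates, the ratio was 0.398. Nos2 gave 37.1 and 56.1 CPM with the gate weights, a ratio of 0.661 (0.617 to 0.709), beside 0.636 as found. Both ratios thus stayed well below 1 when the make-up was held fixed.

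The C1q share, the C1q UMIs as a percentage of C1q plus monocyte-gene UMIs, orders the class from monocyte to macrophage. WT Arg1 stood at 166 CPM in cells with no C1q UMI, 292 CPM at shares of 10 to 25%, 450 CPM at 50 to 75% and 572 CPM at 90 to 99%. Ythdf2 KO cells stood at 48.5, 22.2, 147 and 334 CPM in the same 4 ranges. The ratio was thus lowest at 10 to 25% (0.076, from 58 and 725 UMIs) and nearer to 1 at the macrophage end, at 0.584 (0.545 to 0.626) for 90 to 99% and 0.633 (0.581 to 0.690) above 99%. Nos2 did not fall steadily along the ranges in the Ythdf2 KO library. It stood at 43.1 CPM in Ythdf2 KO cells with no C1q UMI, 25.7 CPM at 10 to 25% and 48.5 CPM at 25 to 50%. WT cells had 71.3, 66.1 and 68.1 CPM there. In the Ythdf2 KO library 1 intermediate cell held 39 Nos2 UMIs, and the ranges were not recomputed without it. Nos2 at shares of 50 to 75% stood at 22.4 CPM in Ythdf2 KO and 54.3 CPM in WT cells (0.413, 0.318 to 0.531), and at 90 to 99% at 28.8 and 31.2 CPM (0.920, 0.707 to 1.20). In the most C1q-rich macrophages the Nos2 ratio was therefore within counting error of 1, and the lower Nos2 of the macrophage gate lay in its cells of lower C1q share. A macrophage gate that asked for C1q UMIs at least 9 times the monocyte UMIs, added after these values were seen, gave an Arg1 ratio of 0.614 and a Nos2 ratio of 0.909 (0.725 to 1.14); it holds the cells of the 2 highest ranges and so restates their values.

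**Figure D3:**
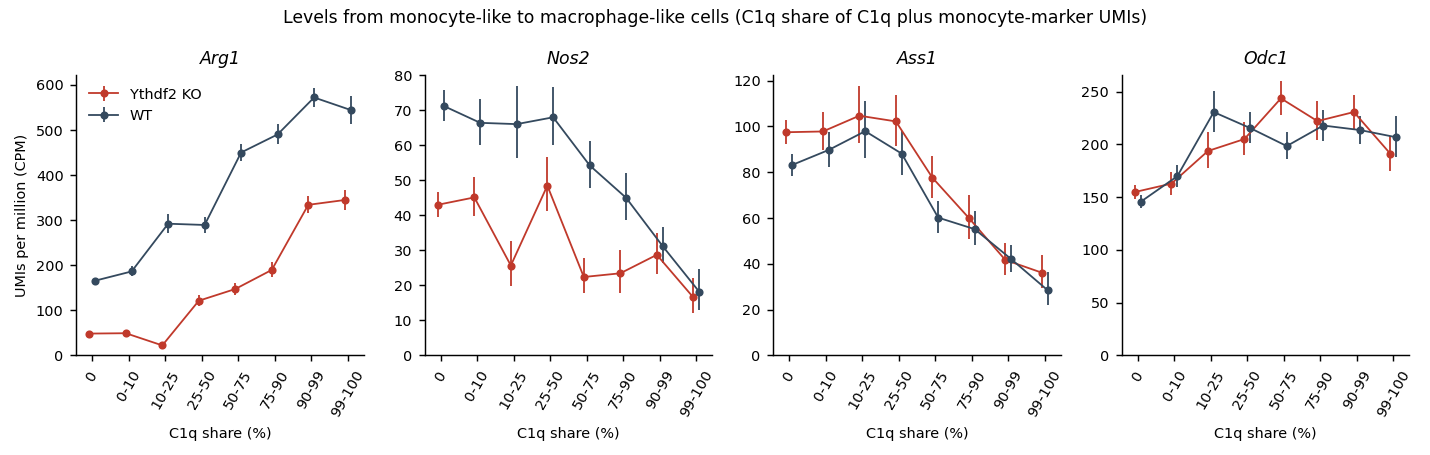
Level of Arg1, Nos2, Ass1 and Odc1 (CPM) in monocyte/macrophage cells ordered by C1q share (percent), for the Ythdf2 KO and WT libraries, with exact 95% Poisson intervals. Arg1 is higher toward the C1q-rich end and stays lower in Ythdf2 KO cells (334 against 572 CPM at 90 to 99%), and the Nos2 lines meet there (28.8 and 31.2 CPM). Ass1 and Odc1 stand higher in Ythdf2 KO cells at 50 to 75% (77.6 against 60.2 and 244 against 198 CPM). Odc1 stands lower in them at 10 to 25% (194 against 231 CPM), and the intervals of its ratio span 1 in every other range.

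Arg1 and Nos2 are often treated as opposite states of a macrophage, and the files allow a count of cells with both. In macrophages 58 Ythdf2 KO cells had UMIs of both genes, 350 of Arg1 without Nos2, 69 of Nos2 without Arg1 and 1303 of neither; in WT macrophages these counts were 169, 968, 123 and 1548. Nos2 was found in 14.2% of Ythdf2 KO macrophages with Arg1 and 5.03% of those without, and in 14.9% and 7.36% of WT macrophages. Cells with Arg1 thus carried Nos2 more often than cells without it, in both libraries. Deeper cells show more of every gene, and cells with both had a median of 8257 UMIs in Ythdf2 KO and 6023 in WT macrophages, against 5455 and 4396 in cells with neither. Thinned to 1000 UMIs, Nos2 was expected in 4.40% (1.96 to 8.37) of Ythdf2 KO macrophages with Arg1 and 1.78% (1.19 to 2.56) without, and in 5.21% (3.61 to 7.26) and 2.55% (1.93 to 3.30) of WT macrophages. Within macrophages of 2000 to 5000 UMIs, unthinned, Nos2 was found in 8.57% (3.99 to 15.6) of Ythdf2 KO cells with Arg1 and 5.10% (3.42 to 7.29) without, intervals that overlap, and in 13.4% (10.5 to 16.8) and 6.05% (4.55 to 7.85) of WT cells. At 5000 to 10000 UMIs Nos2 was found in 14.9% of Ythdf2 KO cells with Arg1 and 4.54% without, and in 15.3% and 8.46% of WT cells; above 10000 UMIs the shares were 18.4% and 5.53% in Ythdf2 KO cells, and 21.9% and 17.3%, with overlapping intervals, in WT cells. After thinning, the difference was 2.61 percentage points (0.054 to 6.63) in Ythdf2 KO and 2.67 (0.893 to 4.81) in WT macrophages, intervals that overlap widely. With no UMI of another lineage allowed it was 2.24 (-0.421 to 6.78) in Ythdf2 KO and 2.91 (0.897 to 5.37) in WT macrophages, so for Ythdf2 KO the interval then spans 0.

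Classical monocytes showed the same direction. Thinned to 1000 UMIs, Nos2 was expected in 13.9% (6.41 to 25.2) of Ythdf2 KO classical monocytes with Arg1 and 3.36% (2.70 to 4.13) without, and in 10.2% (6.95 to 14.2) and 5.04% (4.30 to 5.87) of WT classical monocytes. Macrophages with both genes had summed C1q levels of 7412 CPM in Ythdf2 KO and 8385 CPM in WT cells, against 9763 and 10333 CPM in macrophages with neither, which places them toward the less C1q-rich cells of the gate.

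**Figure D4:**
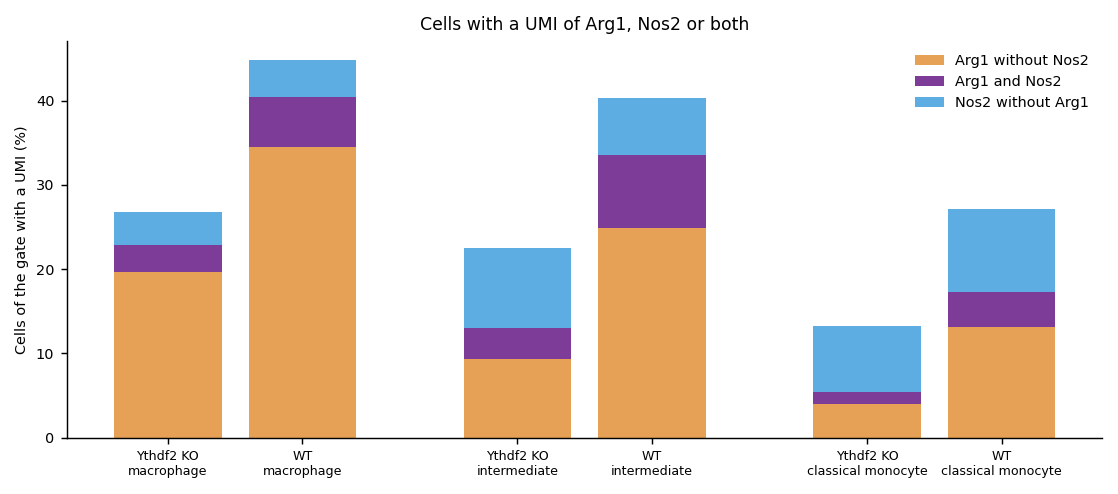
Share of cells (percent, unthinned) with a UMI of Arg1 without Nos2, of both, or of Nos2 without Arg1, stacked, in 3 gates, with the Ythdf2 KO bar left of the WT bar in each. Every stack is shorter in the Ythdf2 KO library; in macrophages 58 of 1780 Ythdf2 KO and 169 of 2808 WT cells carried both genes, and Arg1 without Nos2 is the widest band there.

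Arg2, the mitochondrial arginase, had its highest level in neutrophils. It stood at 274.5 CPM (250 to 300) in Ythdf2 KO and 241.2 CPM (214 to 271) in WT neutrophils, and the interval of their ratio of 1.14 (0.979 to 1.33) spans 1; a UMI was found in 41.0% and 42.0% of neutrophils. Neutrophils made up 5.18% of kept Ythdf2 KO cells and 2.45% of kept WT cells and held 21.0% and 11.2% of all Arg2 UMIs; classical monocytes held 22.7% and 28.4%. All kept cells together had 20.5 CPM of Arg2 in the Ythdf2 KO library and 17.9 CPM in the WT library (1.14, 1.08 to 1.21), while classical monocytes had 32.5 and 37.7 CPM (0.863, 0.769 to 0.968). Macrophages had 11.5 and 13.3 CPM. Neutrophils were low in Arg1, as given above, so the 2 arginase genes had their highest levels in different gates.

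Slc7a2, a transporter for cationic amino acids that macrophages use to feed arginase and nitric oxide synthase, was captured rarely. It stood at 3.14 CPM in Ythdf2 KO and 4.38 CPM in WT cells of the monocyte/macrophage class, from 111 and 172 UMIs, and the ratio was 0.716 (0.559 to 0.914). Most of its UMIs in macrophages lay in cells without a Nos2 UMI, which were the more numerous, but its level was higher in those with one. In macrophages with a Nos2 UMI it stood at 18.8 CPM in Ythdf2 KO and 11.4 CPM in WT cells, against 2.15 and 3.60 CPM in macrophages without, ratios of 8.76 (from 18 and 24 UMIs) and 3.16 (from 22 and 48 UMIs). Macrophages with an Arg1 UMI likewise had 7.97 and 7.47 CPM of Slc7a2, against 1.72 and 2.26 CPM without. These groups of cells differ in depth, and that part was not tested.

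Ass1, which joins citrulline and aspartate in the rate-limiting step of arginine recycling, stood slightly higher in Ythdf2 KO monocytes and macrophages. Classical monocytes had 97.5 CPM in the Ythdf2 KO library and 84.0 CPM in the WT library, a ratio of 1.16 (1.08 to 1.25). Intermediate cells had 104 and 89.9 CPM and macrophages 55.0 and 49.1 CPM, with ratios of 1.16 (1.01 to 1.33) and 1.12 (1.01 to 1.25). T cells had 30.8 and 16.6 CPM, a ratio of 1.85 (1.40 to 2.47), and monocyte/macrophage class markers in these T cells summed to 275 and 221 CPM. Mature DC had the highest Ass1 of the 10 gates, with an interval that overlapped that of intermediate cells in the Ythdf2 KO library, and went the other way, with 127 CPM in Ythdf2 KO and 178 CPM in WT cells (0.713, 0.595 to 0.853). Tumour or stromal markers summed to 308 CPM in Ythdf2 KO and 19 CPM in WT mature DC, with a UMI in 8.80% and 3.17% of the cells. Without those cells the Ass1 ratio was 0.920 (0.762 to 1.11), so the mature DC difference did not hold beyond counting error.

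Ass1 followed Nos2 at the level of cells. Macrophages with a Nos2 UMI had 94.2 CPM of Ass1 in Ythdf2 KO and 68.3 CPM in WT cells, against 51.7 and 46.3 CPM in macrophages without, ratios of 1.82 and 1.48. Macrophages with an Arg1 UMI had 62.6 CPM in the Ythdf2 KO library and 41.9 CPM in the WT library, against 52.1 and 55.0 CPM without, so that Ass1 stood 1.20 times as high with Arg1 in Ythdf2 KO and 0.76 times as high in WT macrophages. This contrast between libraries was not seen in the other gates compared. The ratios were 0.970 and 1.18 in intermediate cells and 0.973 and 0.946 in classical monocytes, all with intervals that span 1. The part that depth and C1q share play was not tested. Asl, which releases arginine from argininosuccinate in the next step, was even: 35.0 CPM in Ythdf2 KO and 38.4 CPM in WT macrophages (0.912, 0.803 to 1.04), and 30.7 and 30.6 CPM in classical monocytes. Mature DC had the most Asl, at 64.9 and 64.2 CPM.

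Odc1, the first enzyme of polyamine synthesis, was highest in T cells, with 415 CPM in the Ythdf2 KO library and 458 CPM in the WT library (0.907, 0.853 to 0.965). NK cells had 274 and 277 CPM and macrophages 223 and 210 CPM, a ratio of 1.06 (1.01 to 1.12). Classical monocytes had 159 and 156 CPM. Unlike Arg1, which makes its substrate, Odc1 in the monocyte/macrophage class was the same in both libraries within counting error, at 183 and 182 CPM (1.00, 0.970 to 1.04). Patrolling monocytes had 127 CPM in Ythdf2 KO and 83.6 CPM in WT cells (1.52, 1.19 to 1.97), and neutrophils 66.0 and 41.8 CPM (1.58, 1.12 to 2.26). In neutrophils 7.67% of 3808 measured genes were at least 1.5-fold higher and 6.09% that much lower.

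The genes around the members were read from 7 lists in macrophages. Of 64 measured genes 2 (3.13%) were at least 1.5-fold higher in the Ythdf2 KO library and 5 (7.81%) at least 1.5-fold lower, beside 2.47% and 4.69% of all genes, a difference of few genes. Of polyamine genes 11 of 12 were measured and 1 was lower, Azin2, an inhibitor of antizyme, with 1.40 CPM in Ythdf2 KO and 2.88 CPM in WT macrophages. The most captured of them were Sat1, which acetylates spermidine and spermine (1007 and 951 CPM), Oaz1, the antizyme that marks Odc1 for destruction (659 and 558 CPM), and Azin1 (118 and 139 CPM). None of the 6 measured genes of hypusine and polyamine transport was past 1.5-fold; Slc3a2 had 393 and 448 CPM, Eif5a, the translation factor that carries hypusine, 387 and 353 CPM, and Atp13a2 107 and 125 CPM.

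Of the 7 measured genes of the ornithine, proline and creatine branches, Ckb, brain-type creatine kinase, was higher, with 196 CPM in Ythdf2 KO and 119 CPM in WT macrophages (1.65, 1.55 to 1.75). Gatm, which uses arginine in the first step of creatine synthesis, was lower, with 36.0 and 56.4 CPM (0.638, 0.567 to 0.717). Gatm had nearly the same ratio in classical monocytes, at 0.636. Scaled by the median ratio of measured genes, Gatm in macrophages came to 0.668, Castor1 to 0.677 and Tgfbr1 to 0.683, just inside 1.5-fold, while Azin2 at 0.509 and Slc7a5 at 0.474 stayed past it. Among 9 measured genes of arginine transport and charging 2 were lower, Slc7a5, a transporter of large neutral amino acids, with 2.97 CPM in Ythdf2 KO and 6.56 CPM in WT macrophages, and the arginine sensor Castor1. Slc7a7, Rars and Slc38a9 had ratios of 1.02, 1.10 and 0.910.

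None of the 9 measured nitric oxide cofactor and inhibitor genes was past 1.5-fold: Gch1, which makes the cofactor tetrahydrobiopterin, had 120 CPM in Ythdf2 KO and 124 CPM in WT macrophages, Cyb5r4 47.9 and 47.2 CPM, and Prmt1 46.4 and 45.7 CPM. Of the 10 known inducers of Arg1, all measured, the nuclear receptor gene Pparg was higher, with 31.0 and 19.2 CPM (1.61), and the receptor gene Tgfbr1 lower, with 28.5 and 43.6 CPM (0.65). Cebpb had 1081 CPM in Ythdf2 KO and 1040 CPM in WT macrophages, Klf4 664 and 793 CPM (0.837, 0.813 to 0.861), and Hif1a, the oxygen-sensing factor, 173 and 228 CPM (0.761, 0.720 to 0.803). None of the 12 inducers of Nos2 was past 1.5-fold. The interferon regulatory factor genes Irf8 and Irf1 had ratios of 0.880 and 0.843.

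**Figure D5:**
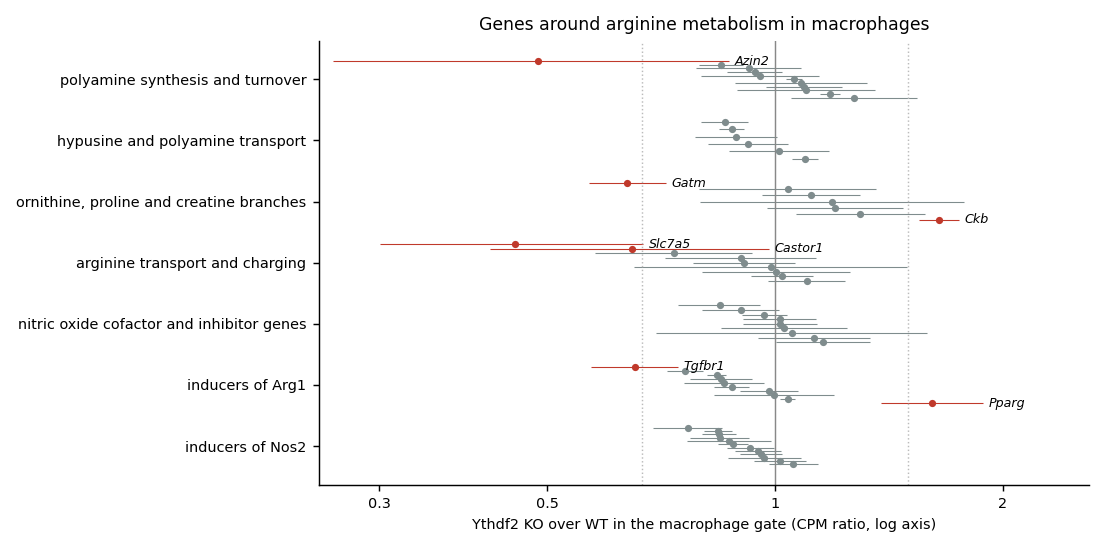
Ratio, Ythdf2 KO over WT (log axis), of each measured gene of the 7 lists in macrophages, with exact 95% intervals for counting error and dotted lines at 1.5-fold either way. Most genes lie between the dotted lines; the 5 named on the left lie below, among them Gatm (0.638), and Ckb (1.65) and Pparg (1.61) lie above.

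Across 10 gates with at least 50 cells in both libraries, and over 9451 genes, the patterns most like that of Arg1 were those of Ms4a7, Maf, Gm15655, Ccl7 and Nxpe5, with Pearson r of log2(CPM + 1) between 0.943 and 0.984 in either library. Those most like Nos2 were C1rl, Clec4a2, F13a1, Tgfbi and Lyz2, with r between 0.939 and 0.968. These are correlations over 10 gates of the same library, described without a test. In macrophages the like genes did not share the Arg1 gap: Ms4a7 had 1470 CPM in Ythdf2 KO and 1519 CPM in WT macrophages, and Ccl7, a chemokine for monocytes, 2287 and 1712 CPM. Ms4a7 was lower in the Ythdf2 KO library in intermediate cells (707 and 889 CPM) and classical monocytes (211 and 282 CPM). Ccl7 had 679 and 677 CPM in classical monocytes. Arg1 and Nos2 themselves had an r of 0.878 in the Ythdf2 KO library and 0.748 in the WT library, and Nos2 and Odc1 of -0.097 and -0.487.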

How the data were processed

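Per the file headers the deposited values are raw UMI counts per gene and barcode; the headers name Cell Ranger 6.1.1, whereas Cell Ranger 5.0.1 stands in the submitters' processing notes, with Seurat 4.0.4 and mm10; which run made the tables is not settled. The counts were made by the authors, with 1 library per genotype and no pooling of libraries stated. Barcodes with at least 500 UMIs, at least 200 genes and at most 10% mitochondrial UMIs were kept. Scrublet (in scanpy 1.11.5) scored doublets; its automatic threshold marked 0% of Ythdf2 KO and 14.8% of WT barcodes, so the highest 8% of scores were removed from each library. Cells were gated on marker UMIs (no clustering): monocytes and macrophages needed 5 UMIs of class markers, Csf1r, Fcgr1 and Ms4a6c among them; macrophage and intermediate cells 10 C1q UMIs; monocytes at most 2, with 10 UMIs of Ly6c2, Vcan and Chil3 or 3 patrolling-marker UMIs; other gates 3 or 5 of their own. At most 1 UMI was allowed of each other lineage's markers, and up to 3 of class markers in gates outside the class. As exceptions, NK markers were not limited in the T gate, nor cDC2 markers in the cDC1, mature DC and plasmacytoid DC gates. The NK gate allowed no T cell marker UMI. The DC, mast cell, T, NK and B gates also needed fewer than 10 UMIs of the S100 neutrophil markers. CPM, exact intervals and thinned shares came from summed counts with scipy 1.17.1. Thinned shares are the exact hypergeometric expectation, with Clopper-Pearson intervals, and differences of shares used Newcombe's combination of these intervals. Ratio intervals were tried on simulated gate sums drawn from a Poisson model, and thinned shares were compared with random draws. The simulated sums lack the concentration of UMIs in few cells, so they do not show how the intervals fare with it. The other intervals were not simulated. A gene was measured in a gate with at least 50 UMIs in both libraries together, and called past 1.5-fold. All 7 members are named; of the lists, the genes past 1.5-fold in macrophages are named, and otherwise up to 3 per list with the most UMIs; some items are not reported here. The members, gates and lists were chosen with earlier results of these data known.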

Additional observations from a re-analysis of the deposited data

Results flagged for a closer look

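Members whose ratio of Ythdf2 KO to WT, over the gates as set, lay above 1 in some and below 1 in others with intervals that leave out 1 are Ass1 and Odc1; these differences between gates were not tested, since each gate has 1 library per genotype. Ass1 had ratios of 1.12 in macrophages, 1.16 in intermediate cells, 1.16 in classical monocytes and 1.85 in T cells, against 0.713 in mature DC. Odc1 had ratios of 1.06 in macrophages, 1.52 in patrolling monocytes and 1.58 in neutrophils, against 0.700 in mature DC and 0.907 in T cells. In mature DC 8.80% of Ythdf2 KO and 3.17% of WT cells carried a tumour or stromal marker UMI. Without these cells the mature DC ratio was 0.920 (0.762 to 1.11) for Ass1, an interval that spans 1, and 0.739 (0.599 to 0.908) for Odc1. The Ass1 interval also spans 1 with stricter gates (0.897) and with no other-lineage UMI (0.872), while Odc1 stayed between 0.687 and 0.739 under its 8 alternatives.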

How the results depend on the processing

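No paired analysis was possible because each genotype has 1 library. Of 205 values under alternatives, 174 stayed within the counting interval of the value as reported, 31 moved by more and none was counted as reversed. Shares of cells, counts of list genes and ratios whose reported interval spans 1 could not be so counted. Among these are the macrophage ratios of Arg2, Slc7a2 and Asl. The Nos2 ratio in T cells went from 1.60 (0.634 to 4.25) to 0.833 without the cell richest in the gene in each library. The absence of reversals thus holds only for the other values. The Arg1 ratio ran from 0.439 to 0.614 in macrophages over 10 alternatives and from 0.289 to 0.412 in the class over 9, and the Nos2 ratio in the class from 0.525 to 0.655. Stricter gates gave an Arg1 class ratio of 0.412; allowing no other-lineage UMI gave 0.366, and 0.410 at fixed make-up. Scaling by the median ratio of measured genes gave 0.526 for Arg1 in macrophages. The following were added after seeing the data. Allowing up to 3 other-lineage UMIs gave an Arg1 ratio of 0.526 in macrophages and 0.409 in the class. Leaving out the richest 1% of cells gave 0.439 and 0.289, and 0.525 for Nos2 in the class. Asking for C1q UMIs at least 9 times the monocyte UMIs gave 0.614 for Arg1 and 0.909 for Nos2 in macrophages, the cells of the 2 highest C1q ranges, where the Nos2 interval spans 1. Without the cell richest in the gene in each library, patrolling monocyte ratios were 0.239 for Arg1 and 0.383 for Nos2, and the T cell ratio of Arg1 was 0.162. Intermediate cell ratios were then 0.328 for Arg1 and 0.607 for Nos2. Why these values moved was not tested.

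Among list genes in macrophages, the 5 that were 1.5-fold lower became 2 under median-ratio scaling (Azin2 and Slc7a5, without Gatm, Castor1 and Tgfbr1) and 2 with at least 200 UMIs, and the 2 higher became 5 with no filter on low counts, by construction of the filters. Shares depend on depth: thinned to 2000 UMIs, Arg1 was expected in 15.6% of Ythdf2 KO and 30.8% of WT macrophages and Nos2 in 3.43% and 5.62%; unthinned, the shares were 22.9% and 40.5% for Arg1 and 7.13% and 10.4% for Nos2, and the co-detection difference was 9.19 percentage points in Ythdf2 KO and 7.50 in WT macrophages. Arg1 in classical monocytes ranged from 0.240 to 0.297. Ass1 in mature DC was 0.897 with stricter gates, 0.872 with no other-lineage UMI and 0.920 without tumour or stromal marker UMIs. Depth limits Slc7a2, Nos2 outside the class and every member in gates of few cells.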

Other observations

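In neutrophils, where Arg1 and Nos2 were scarce, genes of the inducer list of Arg1 lay past 1.5-fold. Klf4, a transcription factor gene, stood at 148 CPM in Ythdf2 KO and 60.1 CPM in WT neutrophils, a ratio of 2.47 (1.88 to 3.27) from 256 and 69 UMIs. It went the other way in macrophages, with 664 and 793 CPM (0.837, 0.813 to 0.861), and in classical monocytes, with 663 and 774 CPM (0.856, 0.835 to 0.878). Ppard, a nuclear receptor gene, stood at 21.4 and 38.3 CPM (0.559, 0.351 to 0.886). In the same gate 7.67% of measured genes were at least 1.5-fold higher and 6.09% that much lower, and these genes were named for their values.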
